A study of Homo sapiens with 5 samples.

Results

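The genes described here encode tissue inhibitors of metalloproteinases (TIMPs) together with the membrane-bound and secreted metalloproteases they restrain. They were TIMP1, TIMP2, TIMP3 and the membrane-anchored inhibitor RECK, the matrix metalloproteinases MMP2, MMP14, MMP15 and MMP16, and the sheddases ADAM10 and ADAM17. They were chosen by symbol, and the list was drawn up with the si-circVAMP3 against si-SCR differences of these same 5 libraries known. Their differences are therefore a description, and the counts of changed members are not read as support for anything. All 10 had a row among the 13822 genes of the expression table, and all 10 were among the 12245 genes whose mean FPKM over the libraries reached 0.5, which were the genes tested.

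The libraries came from RH4 cells, a cell line used as a model of alveolar rhabdomyosarcoma, a soft-tissue tumour with features of immature skeletal muscle. The cells received 30 nM of either a control siRNA, called si-SCR (n = 3 libraries), or an siRNA against the back-splice junction of circVAMP3, called si-circVAMP3 (n = 2 libraries). circVAMP3 is a circular RNA made from exons of the gene VAMP3. Fresh medium was given at 24 h in both groups, RNA was taken after 24 h more, and the study's methods describe the libraries of a group as biological replicates. All libraries were strand-specific and made from polyadenylated RNA, so the table holds gene-level messenger RNA of 1 cell line at 1 time after 1 siRNA for the circle. Expression is given in FPKM, fragment counts scaled for gene length and library size, which sets genes of different length on 1 scale.

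Matrix metalloproteinases are zinc-dependent enzymes that cleave collagens, laminins, fibronectin and other matrix proteins, while ADAM10 and ADAM17 cut the outer parts of surface proteins from the cell. TIMPs bind the active site of such enzymes, but not every TIMP inhibits every one of them. TIMP2 has a further role, since it bridges the inactive form of MMP2 to MMP14 on the cell surface. There a neighbouring free MMP14 molecule activates MMP2. The balance between these enzymes and their inhibitors has long been studied in the invasion of soft-tissue tumours.

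The summed FPKM of the libraries lay between 278595 and 283905, and since the table holds no read counts, the number of reads behind each value is unknown; the study's methods give a sequencing depth as an average over the samples only. 1 library stood apart. The log2 level of a gene in si-SCR replicate 3 minus that in another control library fell with the GC content of its transcript (Spearman's rho = -0.42 against replicate 1 and -0.49 against replicate 2, across 12210 genes, which are not independent replicates). For si-SCR replicate 2 minus replicate 1 rho was -0.06, and for si-circVAMP3 replicate 2 minus replicate 1 it was 0.07. Genes were also sorted by GC content into 5 equal classes, and si-SCR replicate 3 was set against the mean of si-SCR replicates 1 and 2. The highest class was at a median log2 deviation of -0.16 and the lowest class at 0.04. Among the members, MMP2 (GC content 55.8%), MMP14 (58.9%), MMP15 (65.5%), TIMP3 (48.7%) and ADAM17 (42.1%) were lower in si-SCR replicate 3 than in the other control libraries, while MMP16 (36.4%), ADAM10 (37.5%) and RECK (42.5%) were higher. The part of base composition in the differences described here was not tested beyond a correction for it, and the values of each member without this library are given beside its result.

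**Figure D1:**
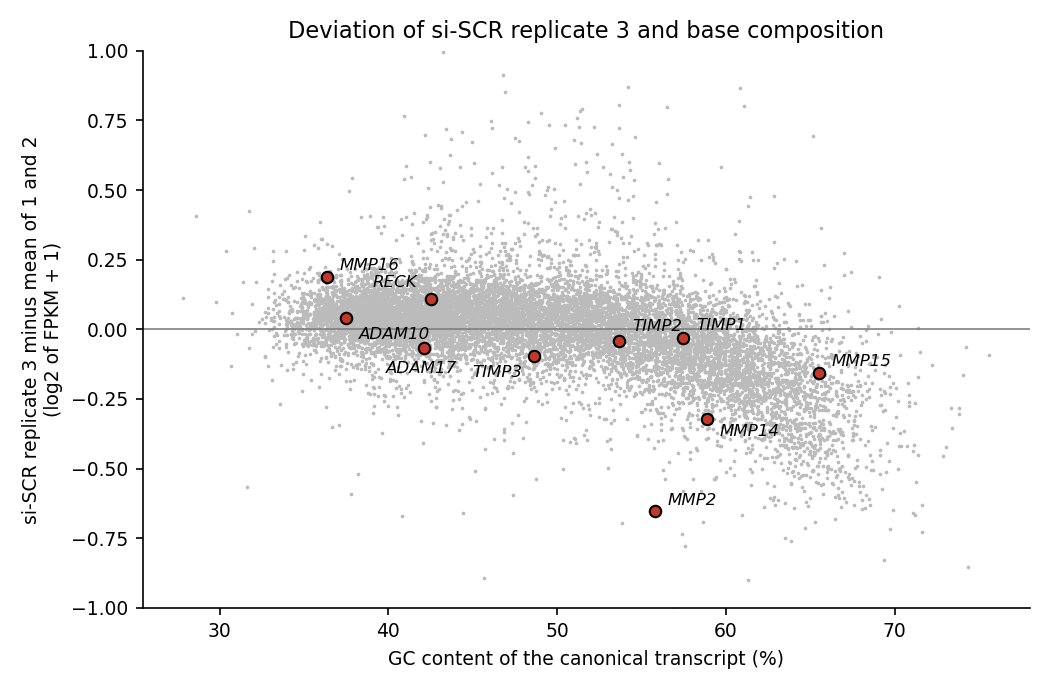
Each grey point is a tested gene, with the GC content of its canonical transcript in percent on the x axis and the level in si-SCR replicate 3 minus the mean of si-SCR replicates 1 and 2, as log2 of FPKM + 1, on the y axis (6 genes lie outside the axis). Red points mark the 10 members: MMP2 lies lowest among them at -0.65, followed by MMP14 at -0.32.

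The identity of the cells was examined with marker genes. Of 14 rhabdomyosarcoma and myogenic markers, 13 had a row in the table used here (MYF5 had none), the most abundant being DES, which encodes the muscle intermediate filament desmin, at 291, 291 and 249 FPKM in si-SCR and 266 and 248 FPKM in si-circVAMP3. The myogenic factor MYOD1 stood at 115, 105 and 84.3 FPKM in si-SCR and 106 and 127 FPKM in si-circVAMP3. None of the 5 epithelial and 5 leukocyte markers had a row, and of 4 endothelial markers PECAM1 alone had one, at no more than 0.153 FPKM. Of 8 fibroblast markers 5 had a row, and nearly all of their summed level was COL3A1, at 33.6, 31.1 and 31.5 FPKM in si-SCR and 29.5 and 27.1 FPKM in si-circVAMP3. DCN, PDGFRA, PDGFRB and COL1A1 stayed below 1 FPKM in all libraries, and LUM, THY1 and FAP had no row. The summed level of the myogenic markers was 1127, 1114 and 989 FPKM in si-SCR and 929.7 and 932 FPKM in si-circVAMP3, so that it was lower in both knock-down libraries. Of the 13 markers, 2 were called lower and 11 were not called (15.4% called, beside 30.3% of all tested genes). MYOG, the differentiation factor myogenin, fell from 175, 179 and 149 FPKM to 101 and 96.6 FPKM (log2 difference -0.76, adjusted p = 0.00154, limma), and CHRND, a subunit of the acetylcholine receptor, from 93.6, 97.4 and 101 FPKM to 82.6 and 74.2 FPKM (-0.31, adjusted p = 0.0102). Without si-SCR replicate 3, DES (-0.18, adjusted p = 0.0268), FGFR4 (-0.37, adjusted p = 0.00354) and OLIG2 (-0.31, adjusted p = 0.0294) were called lower as well. The part of these differences in the values of the members was not tested, and in bulk RNA fewer expressing cells and less RNA per cell cannot be told apart.

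VAMP3, the host gene of the targeted circle, measured 36.4, 35.4 and 37.4 FPKM in si-SCR and 29.4 and 30.2 FPKM in si-circVAMP3. Both knock-down libraries lay below all control libraries. The change of -18.2% in the mean (log2 difference -0.28, SE 0.0426, adjusted p = 0.00492, limma) lost its call without si-circVAMP3 replicate 1 (-0.26, adjusted p = 0.0505). Gene-level FPKM of polyadenylated RNA do not measure the circle itself, which has no poly-A tail, so the depth of its knock-down cannot be read from these values.

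The siRNA is shown because part of its sequence recurs in several of the genes. Without its overhang, the strand listed by the study has 19 bases, of which the leading 8 are the end of VAMP3 exon 4 (chr1:7778118-7778169, GRCh38, plus strand) and the remaining 11 are the start of exon 3 (chr1:7777160-7777318), the junction of a circle of 211 nucleotides. It has the sense of the RNA, so its complementary strand is the one that can pair with circVAMP3, and that strand was taken as the guide here. Which strand the cells loaded was not measured, and matches of transcripts to the listed strand were not examined. In the complementary strand, bases 2 to 8 are in capitals below, and in the transcripts the heptamer complementary to them is in capitals, within the 19 bases that face the whole strand.
siRNA strand with the sense of circVAMP3: caucaucggugguggacau
complementary strand: aUGUCCACcaccgaugaug
TIMP2: tcgctcggtccGTGGACAa
TIMP3: ccctcccacaaGTGGACAt
ADAM10: taatgatggtaGTGGACAg
RECK: aatctgttcatGTGGACAa
The heptamer occurred in the 3′ UTR of the canonical transcripts of TIMP2 (chr17:78852999-78853017, minus strand), TIMP3 (chr22:32861515-32861533, plus strand) and ADAM10 (chr15:58592351-58592369, minus strand), and in the coding sequence of RECK (chr9:36108067-36108085, plus strand) and MMP16. In TIMP2 and RECK it was followed by an A. Of the 19 bases, 9 could pair in TIMP2 and in MMP16, 10 in TIMP3 and RECK and 11 in ADAM10. TIMP1, MMP2, MMP14, MMP15 and ADAM17 had the heptamer in neither region.

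Across the members, TIMP2 and RECK fell and TIMP1, MMP14 and MMP15 rose upon circVAMP3 knock-down, while TIMP3, MMP2, MMP16, ADAM10 and ADAM17 did not pass the test (adjusted p under 0.05 in limma on log2 of FPKM + 1, with p-values adjusted over all 12245 genes). Thus 5 of 10 members were called, beside 30.3% of all tested genes. Higher in si-circVAMP3 were 3 members, beside 14.6% of all tested genes, and 2 were lower, beside 15.8%. With the study's additional cutoff of 0.58 on the absolute log2 difference, MMP14 remained among the higher genes (0.743% of all tested genes) and TIMP2 among the lower ones (1.98%). The libraries of the groups did not overlap for 8 members, 6 higher and 2 lower in si-circVAMP3, beside 58.5% of all tested genes. The median log2 difference was 0.15 over the members and 0.01 over all tested genes. With only 2 knock-down libraries, some of these calls depended on single libraries. MMP14 and MMP15 lost their call when either si-circVAMP3 library was left out, and RECK lost its call without si-circVAMP3 replicate 2. TIMP1 and TIMP2 kept their calls when either was left out, although far fewer genes of the whole table then passed the test.

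**Figure D2:**
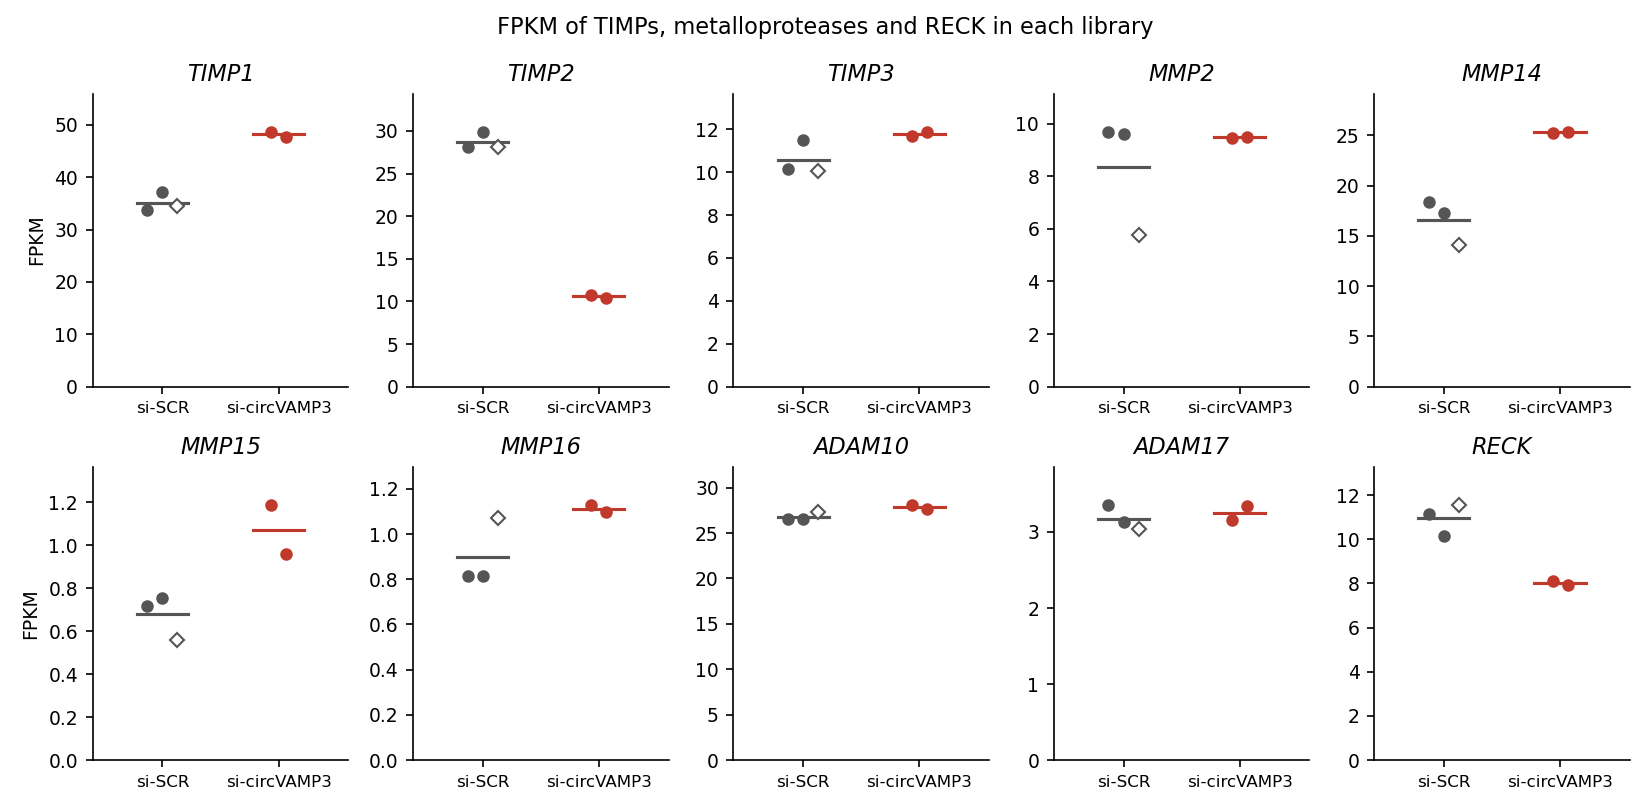
FPKM (y axis, from 0) of each member in each library, with si-SCR in grey and si-circVAMP3 in red, horizontal lines for group means and an open diamond for si-SCR replicate 3. TIMP2 and RECK lie lower in both si-circVAMP3 libraries, TIMP1, MMP14 and MMP15 lie higher, and MMP2 is set apart in si-SCR replicate 3 alone at 5.78 FPKM.

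Among the inhibitors, the largest difference was that of TIMP2 (chr17:78852977-78925387, minus strand), the inhibitor that also takes part in MMP2 activation. It measured 28.1, 29.9 and 28.1 FPKM in si-SCR and 10.8 and 10.4 FPKM in si-circVAMP3. Every knock-down library was far below every control library, and the gap was many times the spread within either group. The mean was 28.7 ± 1.03 FPKM (SD, n = 3) in si-SCR and 10.6 ± 0.317 FPKM (SD, n = 2) in si-circVAMP3, 2.71-fold lower. The log2 difference was -1.36 (SE 0.0483, 95% confidence interval -1.47 to -1.24, adjusted p = 4.99e-05, limma), and -1.37 without si-SCR replicate 3. The span of TIMP2, introns included, overlaps that of CEP295NL on the same strand. Whether their exons overlap, and so whether any read could belong to either gene, was not examined. The same holds for ADAM10, which overlaps HSP90AB4P and RN7SKP95 on its strand, and for MMP2 and RECK, which each overlap a gene model without a symbol.

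TIMP1 (chrX:47582408-47586789, plus strand), a secreted inhibitor with a broad range of metalloprotease targets, moved the other way. It measured 33.7, 37.1 and 34.6 FPKM in si-SCR and 48.7 and 47.7 FPKM in si-circVAMP3. Both knock-down libraries lay above the highest control library. The means were 35.1 ± 1.79 FPKM and 48.2 ± 0.709 FPKM, 1.37-fold higher, with a log2 difference of 0.45 (SE 0.0511, adjusted p = 0.00188, limma) and of 0.44 without si-SCR replicate 3. TIMP3 (chr22:32801705-32863041, plus strand), which binds to the extracellular matrix and inhibits ADAM17 as well as matrix metalloproteinases, measured 10.2, 11.5 and 10.0 FPKM in si-SCR and 11.7 and 11.9 FPKM in si-circVAMP3. The knock-down libraries lay just above si-SCR replicate 2, a gap smaller than the spread among the controls, and the log2 difference of 0.15 (95% interval -0.01 to 0.30, adjusted p = 0.136, limma) did not pass the test, nor did that of 0.11 without si-SCR replicate 3 (adjusted p = 0.212).

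RECK (chr9:36036913-36124455, plus strand), a glycoprotein anchored in the plasma membrane that restrains MMP2 and MMP14, measured 11.2, 10.1 and 11.5 FPKM in si-SCR and 8.09 and 7.91 FPKM in si-circVAMP3. The groups did not overlap, and the lowest control library was si-SCR replicate 2. The means were 10.9 ± 0.724 FPKM and 7.998 ± 0.130 FPKM, 1.37-fold lower. The log2 difference was -0.41 (SE 0.0627, adjusted p = 0.00523, limma), and -0.37 without si-SCR replicate 3 (adjusted p = 0.00562). Without si-circVAMP3 replicate 2 it was -0.39 with an adjusted p of 0.0511, above the threshold.

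Among the matrix metalloproteinases, MMP14 (chr14:22836560-22849041, plus strand), the membrane-type enzyme that cleaves collagen and activates MMP2, measured 18.4, 17.3 and 14.1 FPKM in si-SCR and 25.3 and 25.4 FPKM in si-circVAMP3. The knock-down libraries were almost equal and above all controls, and si-SCR replicate 3 was the lowest control. The means were 16.6 ± 2.26 FPKM and 25.3 ± 0.0779 FPKM, 1.53-fold higher. The log2 difference was 0.59 (SE 0.103, 95% interval 0.34 to 0.83, adjusted p = 0.00781, limma), just inside the cutoff of 0.58. Without si-SCR replicate 3 it was 0.48 (adjusted p = 0.00116), which is outside that cutoff, as was the value of 0.56 (adjusted p = 0.00193) after correction for GC content. When either si-circVAMP3 library was left out, the difference stayed at 0.59 but the adjusted p rose to 0.0596 and 0.0632.

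MMP2 (chr16:55389700-55506691, plus strand), the secreted gelatinase that MMP14 activates, measured 9.70, 9.62 and 5.78 FPKM in si-SCR and 9.47 and 9.50 FPKM in si-circVAMP3. Both knock-down libraries lay between the control libraries, and si-SCR replicate 3 alone was low. The log2 difference of 0.19 (SE 0.193, adjusted p = 0.488, limma) rested on that library and became -0.02 (95% interval -0.14 to 0.09, adjusted p = 0.72) without it. After correction for GC content, with all libraries, it was 0.18 (adjusted p = 0.47, limma).

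The other membrane-type enzymes were scarce. MMP15 (chr16:58025754-58046901, plus strand) measured 0.718, 0.757 and 0.559 FPKM in si-SCR and 1.19 and 0.960 FPKM in si-circVAMP3. The groups did not overlap, and the knock-down libraries differed from each other more than the controls did. The means differed 1.58-fold, but the log2 difference was only 0.31 (SE 0.0816, adjusted p = 0.032, limma), since a pseudocount of 1 shrinks the change of a gene near 1 FPKM; with a pseudocount of 0.1 it was 0.60. Without si-SCR replicate 3 the difference was 0.25 with an adjusted p of 0.0496. The call was lost on leaving out any other library, with adjusted p of 0.0552 and 0.0599 without si-SCR replicates 1 and 2 and of 0.188 and 0.0676 without si-circVAMP3 replicates 1 and 2, and after correction for GC content (0.25, adjusted p = 0.0685). MMP16 (chr8:88032011-88328025, minus strand) measured 0.814, 0.816 and 1.07 FPKM in si-SCR and 1.13 and 1.10 FPKM in si-circVAMP3. Here si-SCR replicate 3 was the high control, close to the knock-down libraries. The log2 difference was 0.16 (adjusted p = 0.174, limma) and became 0.22 (adjusted p = 0.0423) without it. With a pseudocount of 0.1 and all libraries it was 0.29 (adjusted p = 0.18).

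The sheddases changed little. ADAM10 (chr15:58588809-58749791, minus strand), which cleaves Notch receptors and cadherins, measured 26.6, 26.5 and 27.3 FPKM in si-SCR and 28.1 and 27.7 FPKM in si-circVAMP3, and ADAM17 (chr2:9488486-9556732, minus strand), which releases tumour necrosis factor from the cell surface, 3.35, 3.13 and 3.04 FPKM in si-SCR and 3.16 and 3.34 FPKM in si-circVAMP3. For ADAM10 the knock-down libraries lay slightly above the controls, and for ADAM17 the groups overlapped. The log2 differences were 0.05 (95% interval -0.04 to 0.15, adjusted p = 0.347, limma) for ADAM10 and 0.03 (-0.12 to 0.17, adjusted p = 0.768) for ADAM17, so that for both any fall larger than 0.12 or rise larger than 0.17 lay outside the intervals. Without si-SCR replicate 3 they were 0.07 and 0.00, and after correction for GC content 0.10 (adjusted p = 0.0603) and 0.07 (adjusted p = 0.462).

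**Figure D3:**
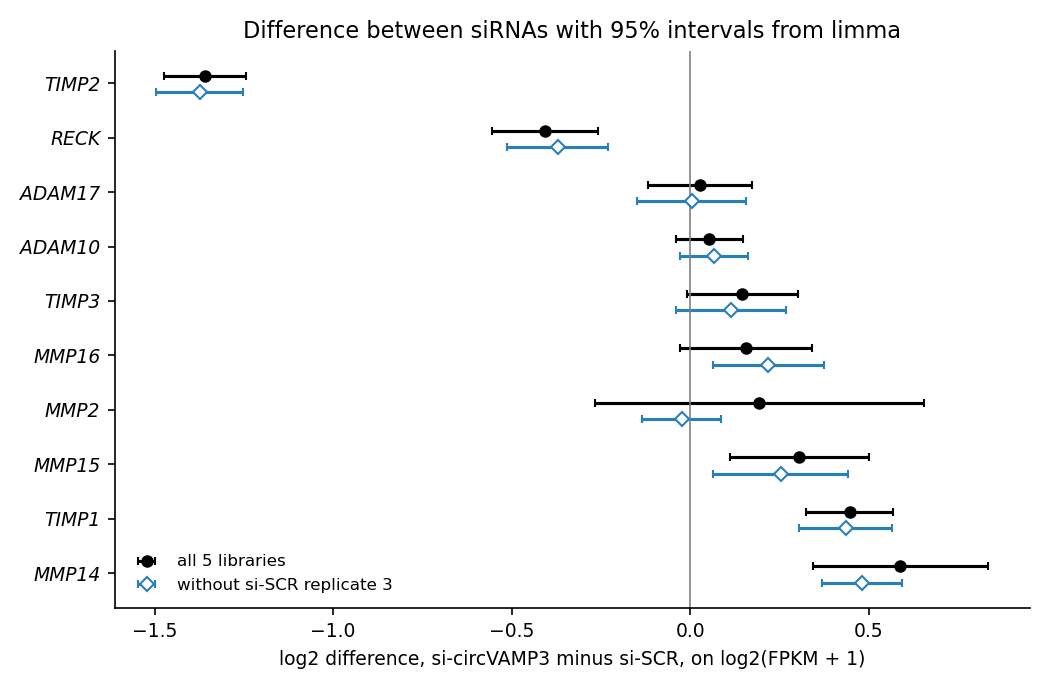
Log2 difference on FPKM + 1 (x axis, si-circVAMP3 minus si-SCR) of each member with its 95% interval from limma, from all 5 libraries (black circles) and without si-SCR replicate 3 (blue diamonds). TIMP2 at -1.36 is far to the left of the others, and MMP2 moves from 0.19 to -0.02, with a much narrower interval, when that library is left out.

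In the control cells the order of the mean levels in FPKM was TIMP1 (35.1), TIMP2 (28.7), ADAM10 (26.8), MMP14 (16.6), RECK (10.9), TIMP3 (10.6), MMP2 (8.37), ADAM17 (3.17), MMP16 (0.900) and MMP15 (0.678). RECK and TIMP3 overlapped between libraries, whereas the other neighbours in this order did not. In si-circVAMP3 TIMP2 (10.6 FPKM) stood below ADAM10 (27.9 FPKM), MMP14 (25.3 FPKM) and TIMP3 (11.8 FPKM), all of which it exceeded in si-SCR.

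The fall of TIMP2 was larger in FPKM than the rise of TIMP1. The summed level of TIMP1, TIMP2 and TIMP3 was 72.0, 78.5 and 72.7 FPKM in si-SCR and 71.2 and 69.9 FPKM in si-circVAMP3. Both knock-down libraries lay below every control, but by less than the spread of the controls, with means of 74.4 ± 3.59 FPKM and 70.6 ± 0.880 FPKM. The composition differed more: TIMP2 made up 39.1%, 38.1% and 38.7% of this sum in si-SCR and 15.2% and 14.8% in si-circVAMP3. The ratio of TIMP1 to TIMP2 was accordingly 1.20, 1.24 and 1.23 in si-SCR and 4.51 and 4.61 in si-circVAMP3.

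The ratio of TIMP2 to MMP14, the pair that acts together in MMP2 activation, was 1.53, 1.73 and 2.00 in si-SCR and 0.428 and 0.408 in si-circVAMP3. TIMP2 messenger RNA thus exceeded that of MMP14 in every control library and was below it in both knock-down libraries. The means were 1.75 ± 0.236 and 0.418 ± 0.0138, a 4.19-fold difference. The highest control ratio was that of si-SCR replicate 3, where MMP14 was low, and the control mean without it was 1.63. The ratio of TIMP2 to MMP2 was 2.90, 3.11 and 4.86 in si-SCR and 1.14 and 1.09 in si-circVAMP3. The summed level of MMP2, MMP14, MMP15 and MMP16, most of it MMP14 and MMP2, was 29.6, 28.5 and 21.5 FPKM in si-SCR and 37.0 and 36.9 FPKM in si-circVAMP3. These ratios and sums are of messenger RNA and were not tested, as they use the same contrast by which the genes were chosen.

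**Figure D4:**
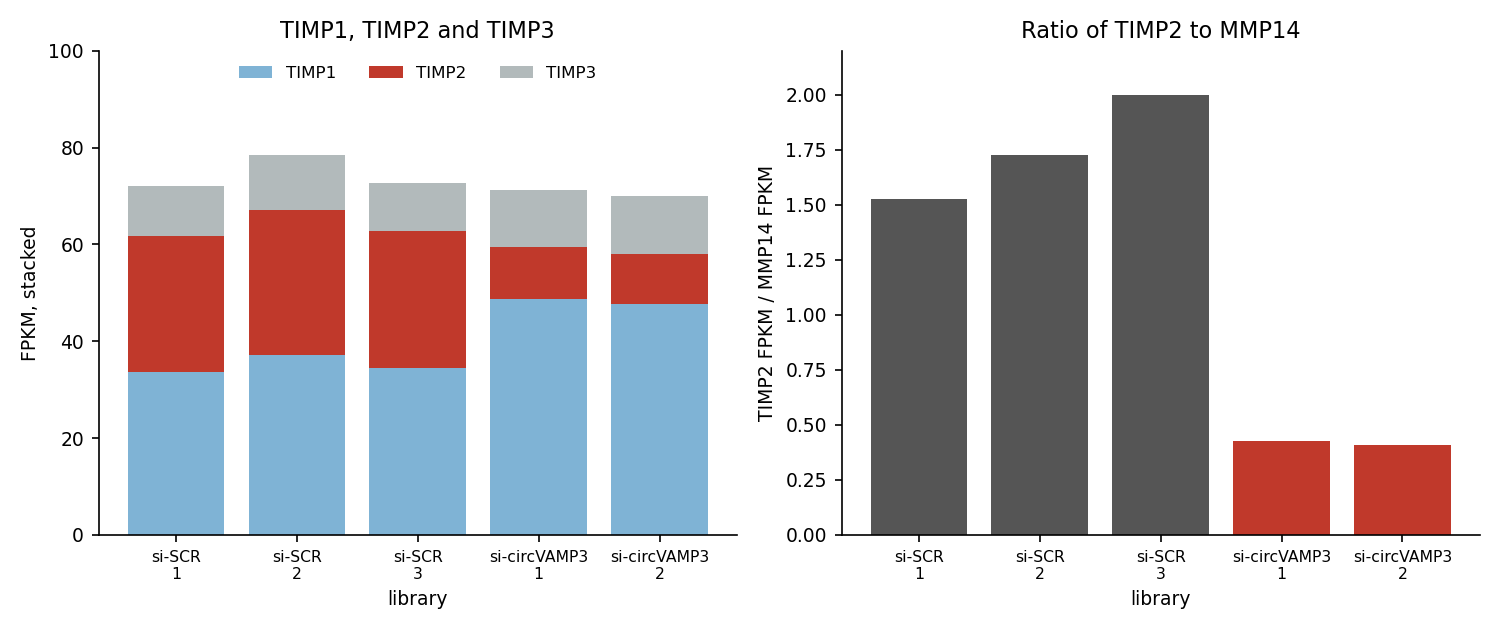
Left, stacked FPKM of TIMP1, TIMP2 and TIMP3 in each library; right, the ratio of TIMP2 to MMP14 FPKM in each library, with si-SCR in grey and si-circVAMP3 in red. The stacks have similar heights (69.9 to 78.5 FPKM) but a smaller TIMP2 section in both si-circVAMP3 libraries, and the ratio is between 1.53 and 2.00 in si-SCR and near 0.42 in si-circVAMP3.

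The heptamer that faces bases 2 to 8 of the siRNA's complementary strand was then counted over the whole table, a step chosen after the differences were known. Among 10947 protein-coding genes tested, 282 had it in the 3′ UTR followed by an A, as TIMP2 does. The median log2 difference of these genes was -0.17, and 40 of them (14.2%) were called lower with the cutoff of 0.58 in limma. Of 977 genes with the heptamer in the 3′ UTR without a following A, as in TIMP3 and ADAM10, the median was -0.08 and 59 (6.04%) were called lower. In the 2080 genes that had it only in the coding sequence, such as RECK, MMP16 and VAMP3, the median was -0.05 and 71 (3.41%) were called lower. An A followed it in 671 of these, RECK included, with a median of -0.09 and 31 (4.62%) called lower. The 7608 genes with the heptamer in neither region had a median of 0.04, with 53 (0.697%) called lower and 73 (0.960%) called higher. Thus the share of genes called lower was larger in each class with the heptamer than in the class without it, and TIMP2 lay near the low end of its own class. The classes were not matched for transcript length, GC content or level, and no other heptamer was counted for comparison. RECK, at -0.41, lay far below the median of its class, while TIMP3, ADAM10 and MMP16 lay above the medians of theirs. Whether the match has a part in the differences of TIMP2, RECK or any other gene was not tested, and with 1 siRNA against the circle a loss of the circle and pairing of the siRNA with other transcripts cannot be told apart.

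**Figure D5:**
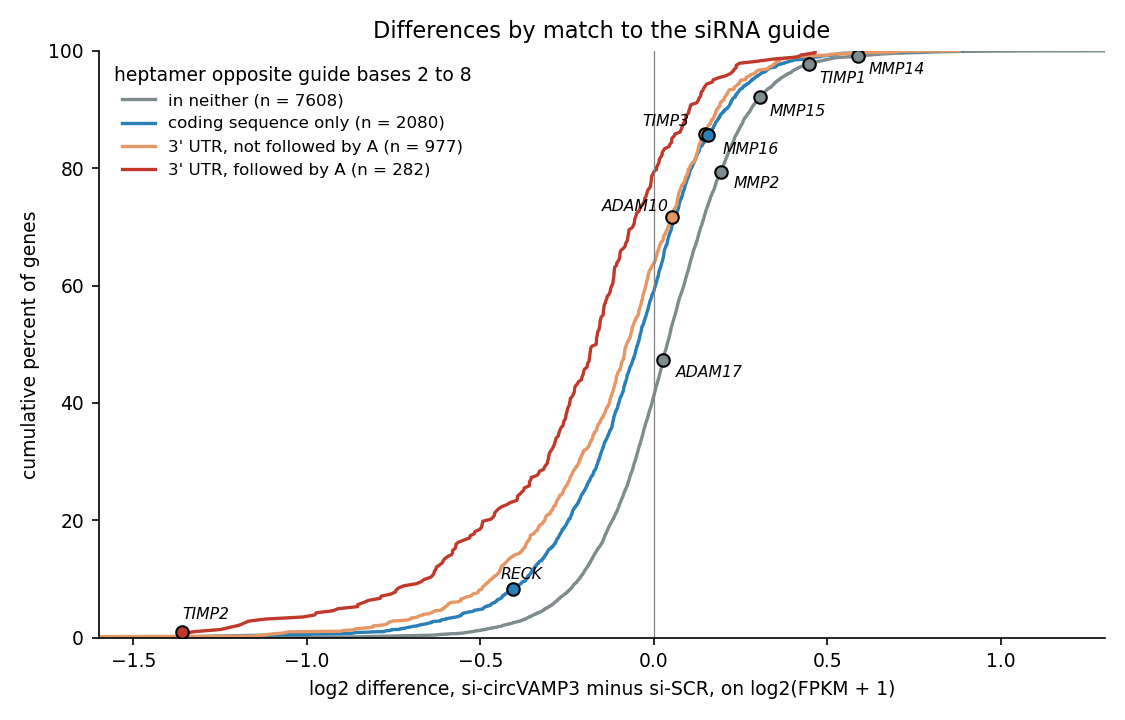
Cumulative percent of tested protein-coding genes (y axis) against the log2 difference on FPKM + 1 (x axis, si-circVAMP3 minus si-SCR), for genes with the heptamer in the 3′ UTR followed by A (red), in the 3′ UTR without it (orange), in the coding sequence only (blue) or in neither (grey), with the members marked on the curve of their class (4 genes lie outside the axis). The red curve is farthest to the left, with a median of -0.17 against 0.04 for the grey curve, and TIMP2 sits at its lower end.

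The genes most like TIMP2 over the 5 libraries, by the Euclidean distance between centred log2 values of FPKM + 1, were RYK (0.0964), DLG5 (0.108), ARPC1A (0.119), MPC2 (0.136) and EIF3B (0.152). RYK, for example, measured 9.47, 9.43 and 9.36 FPKM in si-SCR and 2.92 and 2.91 FPKM in si-circVAMP3. The heptamer was found in the coding sequence of RYK, DLG5, ARPC1A and EIF3B and in the 3′ UTR of MPC2, where an A followed it. Of all 10947 protein-coding genes tested, 69.5% had it in neither region. As the 5 genes were picked by their values in these same libraries, this share does not measure enrichment of the heptamer among them. The genes most like MMP14 were MAP3K11 (0.0676), FRMD8 (0.0872), EPHB3 (0.0939), TRMT1 (0.103) and KCNJ12 (0.108), which all had their lowest value in si-SCR replicate 3, as MMP14 did. EPHB3 measured 12.5, 11.7 and 10.3 FPKM in si-SCR and 17.7 and 17.5 FPKM in si-circVAMP3. These genes rose, and MAP3K11, EPHB3 and KCNJ12 also had the heptamer in the coding sequence, while FRMD8 and TRMT1 had it in neither region.

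The set of promoter sequences used here (GRCh38.p14) ran from 250 bases before to 50 after the start of a gene in RefSeq. This set matched 7 of the 10 members and held no entry for TIMP2, MMP2 and MMP16. The RefSeq start lay downstream of the start of the gene given above by 28 bases in TIMP1, 25 in MMP14, 84 in ADAM10 and 902 in ADAM17, whose window did not hold the latter. On either strand, the AP-1 motif TGACTCA or TGAGTCA, each the reverse complement of the other, was in none of the 7 and in 4.92% of all 27305 promoters. The GC box GGGCGG, in 44.6% of all promoters, was present in each of the 7, with 5 copies in TIMP3 and MMP15, 3 in ADAM17 and RECK, 2 in TIMP1 and 1 in MMP14 and ADAM10. The E-box CACCTG (20.6% of all promoters) was in MMP15 and ADAM17, while CAGCTG (17.7%) and TATAAA (12.0%) were in none of the 7. Of the motifs searched, the windows of TIMP1, MMP14 and MMP15, which rose, thus shared with that of RECK, which fell, the GC box alone.

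Other genes of the metalloprotease network were taken from 11 lists of 150 genes, of which 89 had a row in the table used here and 73 were tested. Of these, 18 were higher and 13 lower in si-circVAMP3 (42.5% called, beside 30.3% of all tested genes), and the median log2 difference was 0.03. The number called was 12 without si-circVAMP3 replicate 1 and 11 without si-circVAMP3 replicate 2. Without si-SCR replicate 3, all 31 kept call and direction and 7 further genes were called, among them ADAM9 (-0.17, adjusted p = 0.0309) and CST3 (0.21, adjusted p = 0.0353). Of 19 further matrix metalloproteinases 2 had a row, and MMP3, the stromelysin that degrades many matrix proteins, rose from 17.1, 13.9 and 16.3 FPKM to 30.1 and 25.3 FPKM (log2 difference 0.78, adjusted p = 0.0031, limma). The remaining inhibitor of the TIMP family, TIMP4, measured 2.17, 2.11 and 2.12 FPKM in si-SCR and 1.90 and 2.18 FPKM in si-circVAMP3, and the groups overlapped. Among 5 tested genes listed as other inhibitors or modulators of proteases, SPOCK2, a testican known to relieve the inhibition of membrane-type enzymes by other testicans, fell from 3.16, 3.24 and 2.86 FPKM to 1.33 and 1.25 FPKM (-0.83, adjusted p = 0.000619), and the most abundant was CST3, an inhibitor of cysteine proteases (6.70, 7.33 and 7.92 FPKM against 8.18 and 8.34 FPKM, not called with all libraries). The number called in this list was 2 in place of 1 without si-SCR replicate 2 and without si-SCR replicate 3.

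Of 6 other ADAM genes tested, ADAM19 rose (log2 difference 0.29) and ADAM11 and ADAM23 fell (-0.41 and -0.23), while the most abundant, ADAM9, was not called with all libraries (33.8, 33.7 and 30.9 FPKM against 30.8 and 29.1 FPKM). Without si-circVAMP3 replicate 1 a single ADAM gene of this list was called, and without replicate 2 none kept its call. Of 6 ADAMTS genes, which encode secreted enzymes that cleave proteoglycans and procollagens, ADAMTS1, ADAMTS4, ADAMTS9 and ADAMTS15 rose (0.18, 0.32, 0.24 and 0.26) and ADAMTS14 fell (-0.56, adjusted p = 0.000835, limma). The number called among these 6 was 1 without si-SCR replicate 2 and also without either si-circVAMP3 library. Among 3 proprotein convertases, which remove the inhibitory propeptides of many metalloproteases, PCSK6 fell (-0.46, adjusted p = 0.0119), and FURIN measured 7.57, 6.73 and 4.96 FPKM in si-SCR and 6.81 and 6.08 FPKM in si-circVAMP3, where the groups overlapped. PCSK6 lost its call without either si-circVAMP3 library.

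Among 7 tested partners of ADAM10 and ADAM17, the tetraspanin TSPAN33, which takes ADAM10 to the cell surface, fell from 18.3, 19.7 and 18.3 FPKM to 12.9 and 10.8 FPKM (log2 difference -0.63, adjusted p = 0.00227, limma), while the tetraspanin TSPAN15 and the ADAM17 cofactor FRMD8 rose (0.24 and 0.53). The number called in this list was 1 without either si-circVAMP3 library. Of 17 tested surface proteins that ADAM10 or ADAM17 can shed, 4 rose and 5 fell, and the number called was 4 without either si-circVAMP3 library. PRNP, the prion protein, fell from 34.3, 33.1 and 29.5 FPKM to 13.8 and 14.5 FPKM (-1.13, adjusted p = 0.000251). The syndecans SDC1 and SDC4 rose (0.53 and 0.51), as did APP, the most abundant of the list, from 80.4, 80.4 and 80.6 FPKM to 104 and 98.0 FPKM, and the receptor TNFRSF1A (0.40). NOTCH2 and NOTCH3, receptors whose activation starts with such a cut, fell (-0.34 and -0.48), as did NCAM1 and APLP2 (-0.27 and -0.15).

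Of 9 tested partners and uptake receptors of MMP14 and the TIMPs, BSG, an inducer of matrix metalloproteinases, rose from 110, 105 and 84.5 FPKM to 133 and 138 FPKM (log2 difference 0.45, adjusted p = 0.022, limma). CD63, a tetraspanin that binds TIMP1, rose from 246, 261 and 252 FPKM to 286 and 305 FPKM (0.23, adjusted p = 0.0148), and IGF1R rose as well (0.22). All 3 lost their call when either si-circVAMP3 library was left out. In the plasminogen activator system, with 6 genes tested, PLAU, which encodes urokinase, rose from 16.04, 16.5 and 17.8 FPKM to 26.4 and 27.6 FPKM (0.65, adjusted p = 0.000798). SERPINE2, an inhibitor of urokinase and thrombin, rose as well, from 12.2, 11.4 and 12.6 FPKM to 19.4 and 18.7 FPKM (0.62, adjusted p = 0.000835), whereas S100A10 fell (-0.18) and ANXA2, the most abundant, overlapped between the groups. S100A10 lost its call on leaving out any library except si-SCR replicate 3, which left 2 genes called in this list. Of 12 tested matrix proteins, FN1, which encodes fibronectin, rose from 67.3, 68.8 and 80.1 FPKM to 107 and 103 FPKM (0.54, adjusted p = 0.00393) and LAMC1 fell (-0.17, adjusted p = 0.0416), while SPARC, the most abundant, measured 218, 228 and 221 FPKM in si-SCR and 231 and 231 FPKM in si-circVAMP3 and was not called. The number of matrix genes called was 4 without si-SCR replicate 3 and 1 without any other library.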

How the data were processed

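Polyadenylated RNA of 5 RH4 libraries was sequenced. The authors called bases with bcl2fastq 2.20.0.422, trimmed reads with Trimmomatic, aligned them with STAR 2.5.2b to GRCh38 with Ensembl 99 and counted them by strand with HTSeq. The deposited values are FPKM that the authors computed with edgeR after removing genes with a CPM under 1 in at least 3 samples; whether library sizes were scaled is not stated.

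Of 13822 gene IDs, 13783 matched a symbol in GENCODE 44 (GRCh38), which also gave positions, canonical transcripts, GC content and heptamer matches. Genes with a mean FPKM of at least 0.5 were tested on log2 of FPKM + 1 with limma 3.58.1 with trend (R 4.3.3) and Benjamini-Hochberg adjustment, checked on simulated data; this scale understates changes of low genes. The study's own test needs counts, which were not used here. Python packages were pandas 2.3.3, scipy 1.17.1 and matplotlib 3.10.9.

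The members and lists were chosen with earlier results of these data known. From each list, up to 4 called genes with the largest differences and the most abundant gene were named; further called genes were named after their values were seen. Likeness was computed for the members with the largest fall and rise. The correction for GC content (a loess fit per library) and the heptamer count were added after seeing the data.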

Additional observations from a re-analysis of the deposited data

How the results depend on the processing

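Besides the values reported, 14 other settings were tried: other pseudocount, filters, scalings, no trend, a replicate block, a GC correction and leaving out each library. TIMP1, TIMP2, TIMP3 and ADAM10 kept direction and side of the threshold in all 14, with TIMP2 between -1.43 and -1.33. Leaving out single libraries gave 1249 to 4020 genes called, 2 to 6 members called and 11 to 38 called genes over the lists, and log2 differences of -0.0241 to 0.30 for MMP2, 0.48 to 0.66 for MMP14, 0.23 to 0.38 for MMP15, 0.12 to 0.22 for MMP16, -0.0043 to 0.0586 for ADAM17 and -0.46 to -0.37 for RECK; where a group had 1 library left, it was assumed to vary like the other group. ADAM17 was negative without si-circVAMP3 replicate 2. Genes past the fold cutoff numbered 334, but 683 with a pseudocount of 0.1 and 577 after rescaling to a larger equal sum, which also lowers the weight of the pseudocount; the ADAMTS genes called went from 5 to 3 under that rescaling. MMP15 was 0.25 after the GC correction. With the replicate number as a replicate block, 3153 genes and 4 members were called. No si-circVAMP3 library shares the number of si-SCR replicate 3, so the log2 differences of this model equal those without that library. MMP2 was thus -0.0241, and MMP15 was 0.25 and lost its call (adjusted p = 0.0732, limma). In this model 2 ADAMTS and 5 matrix genes were called in place of 5 and 2. Same-numbered libraries did not deviate together (r = -0.17 and -0.04 over 12245 genes), so the numbers were not taken as pairs. The 14.2% of genes with the heptamer and A called lower became 20.2% with a pseudocount of 0.1 and 19.1% after rescaling. Apart from the log2 differences under the replicate block, the causes of these shifts were not tested. The stricter filter of a mean FPKM of at least 2 left no value for MMP15 and MMP16 and gave 4 matrix genes called, and limma without trend gave 1. The depth of each library is unknown, and 2 knock-down libraries limit the precision.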
